A study of Mus musculus with 8 samples.

Results

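The genes described here encode the hormones of the anterior pituitary and the factor that switches on several of them: Prl, Gh, Pomc, Cga, Lhb, Tshb, Fshb and Pou1f1. They were chosen by name after the values of Prl, Gh, Pomc and Cga on these same arrays had been seen to differ, so all their values are a description without a test. Of the 8 genes, 7 had a probe set that carried exactly 1 gene symbol, 1 probe set each, among the 22180 genes measured in this way. Pou1f1 had no such probe set in the annotation used here and has no value below.

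The series measured RNA of total brain on 8 Affymetrix whole-transcript arrays. All mice had been immunized with MOG, the myelin antigen that induces experimental autoimmune encephalomyelitis, and their brains were taken on day 14, which the labels give as the peak of disease. The 4 groups of 2 arrays were C57BL/6Je/e mice given NDP-MSH, C57BL/6Je/e mice given PBS, wild-type mice given NDP-MSH and wild-type mice given PBS. NDP-MSH was injected into a vein at 5 µg per mouse on days 8, 10 and 12. C57BL/6Je/e mice (e/e from here on) have a yellow coat and carry an inactivating allele of the melanocortin receptor gene Mc1r in all cells. Genotypes were read from coat colour. No label says whether replicates came from separate animals, and any p-value rests on the differences between arrays of a group, whose source the labels leave unstated. The e/e PBS arrays are not repeats of 1 RNA, since the Y-linked Eif2s3y lay at -0.02 in the first and 2.04 in the second.

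The anterior pituitary is an endocrine gland below the hypothalamus, outside the brain proper, and its hormones are divided among several cell types. Lactotrophs make prolactin (Prl), somatotrophs growth hormone (Gh), and corticotrophs the precursor Pomc, from which ACTH is cut. Thyrotrophs and gonadotrophs share the alpha subunit Cga and pair it with the beta subunit of TSH (Tshb), LH (Lhb) or FSH (Fshb). Pou1f1, also called Pit-1, is the homeodomain factor that lactotrophs, somatotrophs and thyrotrophs depend on. Within the brain, Pomc is made by a small group of hypothalamic neurons and is the source of alpha-MSH, the natural peptide that NDP-MSH imitates.

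The start regions of Prl, Pomc, Cga and Lhb are shown, since Prl, Pomc and Cga were high in 1 array and Lhb was not. That split was seen in the same values by which the genes were chosen, so the motifs are a description and no test of it. The start regions of Tshb, Fshb and Pou1f1 were searched too but are not printed. Each line gives 250 bases before and 50 bases from the start site on (RefSeq, GRCm38.p6), 5′ to 3′. Capitals mark the TATA hexamer TATAAA and the Pit-1 core TATNCAT, on either strand, and matches that overlap run together.
Prl (chr13:27057320-27057619, plus strand): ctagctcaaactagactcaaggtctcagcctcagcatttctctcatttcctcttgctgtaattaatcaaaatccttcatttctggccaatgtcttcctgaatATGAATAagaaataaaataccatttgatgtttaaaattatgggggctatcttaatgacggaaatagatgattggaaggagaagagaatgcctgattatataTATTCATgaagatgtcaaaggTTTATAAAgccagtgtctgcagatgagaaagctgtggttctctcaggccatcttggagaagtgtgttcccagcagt
Pomc (chr12:3954695-3954994, plus strand): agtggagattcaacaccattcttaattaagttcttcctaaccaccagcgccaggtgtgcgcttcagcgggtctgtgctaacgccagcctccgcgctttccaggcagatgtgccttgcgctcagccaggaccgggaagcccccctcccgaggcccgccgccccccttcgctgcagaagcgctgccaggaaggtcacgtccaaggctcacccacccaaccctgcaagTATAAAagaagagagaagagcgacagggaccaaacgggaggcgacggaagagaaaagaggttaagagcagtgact
Cga (chr4:34893529-34893828, plus strand): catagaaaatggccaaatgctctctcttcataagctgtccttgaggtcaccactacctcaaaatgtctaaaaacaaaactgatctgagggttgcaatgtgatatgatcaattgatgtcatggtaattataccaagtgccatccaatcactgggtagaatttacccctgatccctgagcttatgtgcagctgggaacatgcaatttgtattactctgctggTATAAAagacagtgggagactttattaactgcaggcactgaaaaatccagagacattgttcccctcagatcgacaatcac
Lhb (chr7:45420696-45420995, plus strand): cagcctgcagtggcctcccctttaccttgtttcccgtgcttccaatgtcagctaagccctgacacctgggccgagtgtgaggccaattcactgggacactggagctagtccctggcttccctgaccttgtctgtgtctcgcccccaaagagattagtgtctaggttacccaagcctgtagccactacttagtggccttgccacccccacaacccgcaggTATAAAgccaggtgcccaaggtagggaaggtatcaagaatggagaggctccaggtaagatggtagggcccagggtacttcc

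RefSeq start regions were found for 7 of the 8 genes. The gene without one was Gh, which was high in the same array as Prl, so the motif account leaves it out. The TATA hexamer was present in all 7, with 1 of the 2 start regions listed for Pou1f1 lacking it, against 13.6% of 32851 start regions of the same length. In Prl it lay 26 and 24 bases before the start, as matches on opposite strands that overlap, in Pomc at 25, in Cga at 30 and in Lhb at 31 bases before it. The Pit-1 core was found in Prl and Pou1f1, against 8.84% of all start regions. In Prl it lay 148 and 47 bases before the start. For Pou1f1 it was in 1 of the 2 start regions listed, 57 bases before the start and at base 13 after it. Tshb, Fshb, Pomc, Cga and Lhb had no match. One of the Pou1f1 matches overlaps a TATA hexamer. The motif TGANGTCA, a form of the cAMP response element, was found among these genes in Cga, 209 and 139 bases before the start, against 8.83% of all start regions. A match describes letters in this window and does not show that a factor binds.

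The values of all genes are centred on the row median, so they show how arrays differ and hold no absolute level. They are taken as log2, since no source states the base. The numerical step left in the values places the signal of all 7 genes before centring at 4 to 8 in arrays other than the highest, the lower of the 2 signal classes that most rows fall into. In whole tissue, fewer cells of a type and less RNA per cell cannot be told apart.

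Prolactin transcript was by far the highest in 1 wild-type array given NDP-MSH and low in the rest. Prl read 6.97 in wild-type NDP-MSH 1 and -0.22 in its partner, wild-type NDP-MSH 2, against -0.30 and -0.47 in wild-type PBS 1 and 2. The e/e NDP-MSH arrays lay at 0.06 and 0.06, against -0.06 and 0.10 in e/e PBS. A single array therefore carried the signal, and its partner of the same genotype and treatment stood beside the PBS arrays. The excess of wild-type NDP-MSH 1 over the wild-type PBS mean was 7.35, a 164-fold difference if the base is 2. That size depends on the scaling: after a further quantile normalization, which by its construction gives all 8 arrays the same set of values and so draws in the highest ones, the excess was 3.51 (11.4-fold). The folds of the hormone genes are also measured against arrays in the lower signal class, which were not shown to be above background.

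Growth hormone followed the same array. Gh read 6.54 in wild-type NDP-MSH 1 and -0.09 in its partner, wild-type NDP-MSH 2, against -0.08 and -0.03 in wild-type PBS. The e/e NDP-MSH arrays lay at -0.07 and 0.29, against 0.03 and 0.03 in e/e PBS. Wild-type NDP-MSH 1 exceeded the wild-type PBS mean by 6.59 (96.4-fold on the same base, and 5.71-fold after quantile normalization), and wild-type NDP-MSH 2 was the lowest of the 8 arrays for this gene.

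Pomc showed the pattern at a smaller size. It read 3.64 in wild-type NDP-MSH 1 and -0.01 in its partner, wild-type NDP-MSH 2, against -0.23 and -0.16 in wild-type PBS. The e/e NDP-MSH arrays lay at 0.01 and 0.24, against -0.01 and 0.12 in e/e PBS. The high array exceeded the wild-type PBS mean by 3.84 (14.3-fold, and 4.44-fold after quantile normalization). Of these hormone genes, Pomc is the one best known from brain neurons as well.

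Among the glycoprotein hormone subunits, the shared alpha subunit stood out and the beta subunits differed less. Cga read 2.31 in wild-type NDP-MSH 1 and -0.10 in its partner, wild-type NDP-MSH 2, against -0.07 and -0.01 in wild-type PBS, an excess of 2.35 (5.11-fold, and 2.57-fold after quantile normalization). Its e/e values were 0.05 and 0.01 under NDP-MSH, against 0.03 and -0.10 under PBS. Cga joins the hormones that were high in 1 array alone.

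Tshb, the beta subunit of thyrotropin, read 0.69 in wild-type NDP-MSH 1 and 0.01 in its partner, wild-type NDP-MSH 2, against -0.02 and -0.01 in wild-type PBS. Fshb, the beta subunit of follitropin, lay at 0.36 and 0.04 under NDP-MSH, against 0.06 and -0.09 in wild-type PBS. Lhb, the beta subunit of lutropin, lay at 0.03 and -0.03 in wild-type NDP-MSH, against 0.08 and 0.05 in wild-type PBS. Tshb and Fshb were thus highest in the same array as Prl and Gh, by 0.63 and 0.30 above the next array. Lhb was not: its highest array was wild-type PBS 1, and the e/e values were -0.04 and 0.05 under NDP-MSH, against -0.03 and -0.04 under PBS. The order of the values in wild-type NDP-MSH 1 was Prl, Gh, Pomc, Cga, Tshb, Fshb and Lhb. For Fshb the gap of 0.30 stood beside a range of 0.21 over the other 7 arrays. These gaps rest on the array in which Prl, Gh, Pomc and Cga were first seen to be high. Nothing is read from them.

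**Figure D1:**
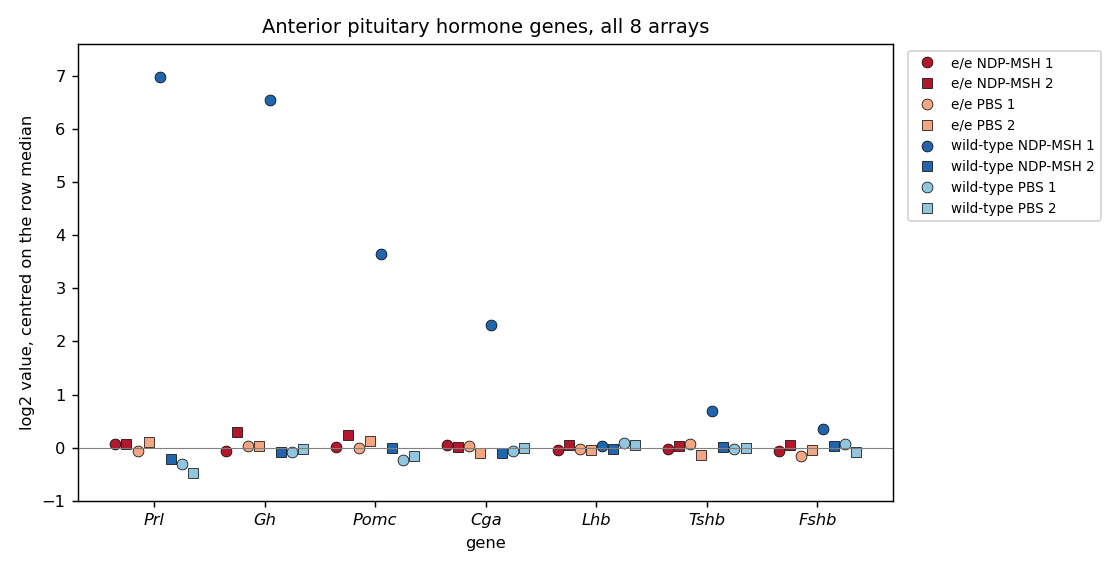
Log2 values, centred on the row median, of the 7 hormone genes in all 8 arrays, with 1 point per array, circles for replicate 1, squares for replicate 2 and colours for the groups. In wild-type NDP-MSH 1, Prl lies at 6.97, Gh at 6.54, Pomc at 3.64 and Cga at 2.31, and Lhb lies among the other arrays.

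The array was set against all genes. In wild-type NDP-MSH 1, Prl, Gh, Pomc and Cga held ranks 1 to 4 of 22180 genes by value, Tshb rank 59, Fshb rank 461 and Lhb rank 8182. Genes that exceeded the highest of the other 7 arrays by more than 1 numbered 4 (0.018% of genes), and these were the 4 hormone genes just named. At a gap above 0.5 there were 17 genes (0.0766%), 5 of them hormone genes, with Tshb as the fifth. Cga had a gap of 2.26, and the gene after it, Depp1, a gap of 0.97. These counts rest on the array in which the genes were first seen to be high, and nothing is read from their share.

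**Figure D2:**
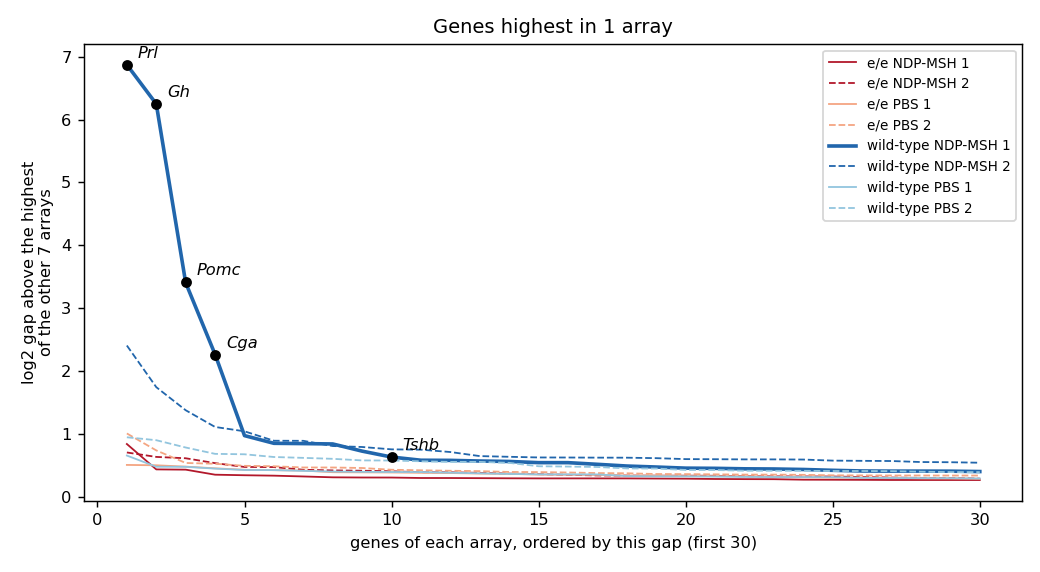
For each array, the gap in log2 units between its value and the highest of the other 7 arrays, for its 30 genes with the largest gap, in order; solid lines are replicate 1 and dashed lines replicate 2. The black points mark Prl, Gh, Pomc, Cga and Tshb in wild-type NDP-MSH 1.

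Other arrays also held genes of their own. Wild-type NDP-MSH 2 exceeded all other arrays by more than 1 in 5 genes and by more than 0.5 in 47, and lay below all others by more than 0.5 in 77 genes, against 12 such low genes in wild-type NDP-MSH 1. The other 6 arrays exceeded the rest by more than 0.5 in 1 to 14 genes.

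The first comparison the series names is NDP-MSH against PBS in wild-type mice. As group means, Prl was 3.38 ± 5.09 under NDP-MSH and -0.38 ± 0.12 under PBS (SD, n = 2 each, here and for the genes that follow). Gh was 3.23 ± 4.69 under NDP-MSH and -0.05 ± 0.03 under PBS. Pomc was 1.82 ± 2.58 under NDP-MSH and -0.20 ± 0.05 under PBS, and Cga 1.10 ± 1.71 under NDP-MSH and -0.04 ± 0.04 under PBS. The spread between the NDP-MSH arrays was larger than each of these means. The differences were 3.76 ± 1.86 for Prl, 3.28 ± 1.72 for Gh, 2.02 ± 0.95 for Pomc and 1.14 ± 0.63 for Cga (limma SE over 8 arrays). Those of the beta subunits were 0.36 ± 0.20 for Tshb, 0.22 ± 0.12 for Fshb and -0.07 ± 0.07 for Lhb. The median over the 7 genes was 1.14, beside 0.02 over all genes. After a further quantile normalization the differences were 2.01 for Prl, 1.25 for Gh, 1.19 for Pomc and 0.66 for Cga, with a median of 0.66 over the 7 genes.

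Without wild-type NDP-MSH 1, the differences were 0.16 for Prl, -0.04 for Gh, 0.19 for Pomc, -0.06 for Cga, 0.02 for Tshb, 0.05 for Fshb and -0.10 for Lhb, with a median of 0.02. The group difference of the hormone genes therefore rested on that array, and the sign of Gh and Cga was negative without it. With wild-type NDP-MSH 1 as the only NDP-MSH array, the median was 2.35.

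**Figure D3:**
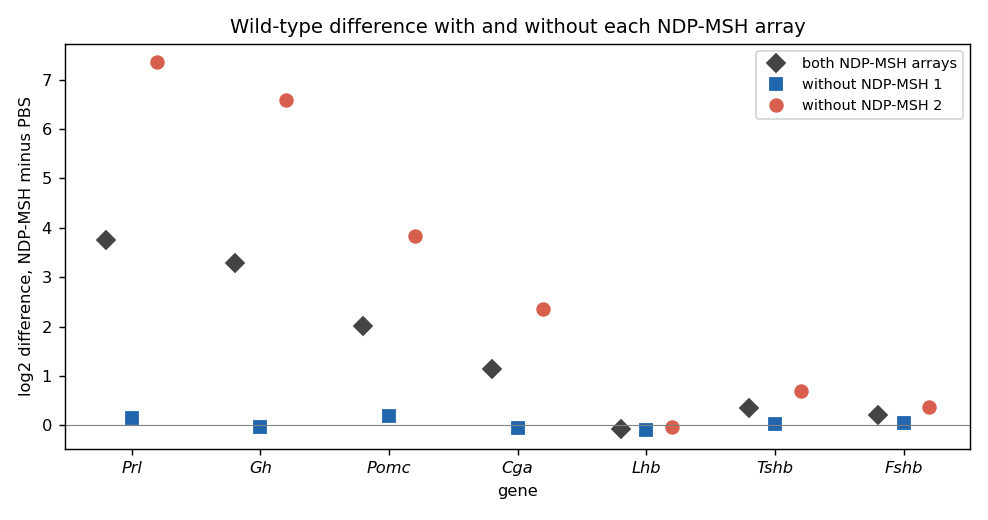
Log2 difference of NDP-MSH minus PBS in wild-type mice for each hormone gene, with both NDP-MSH arrays (diamonds), without NDP-MSH 1 (squares) and without NDP-MSH 2 (circles). Without NDP-MSH 1 the differences lie between -0.10 and 0.19, and without NDP-MSH 2 that of Prl is 7.35.

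Both NDP-MSH arrays lay above both PBS arrays for Prl, Pomc and Tshb, 3 of 7 genes, where 25.3% of all genes did so, and below for Lhb, 1 of 7, where 18.9% did so. These counts take in the array in which the genes were first seen to be high, and nothing is read from them. In wild-type NDP-MSH 2, Prl lay at -0.22, against -0.30 in the higher PBS array, Pomc at -0.01, against -0.16, and Tshb at 0.01, against -0.01. Across all genes limma called 39 of 22180 (0.176%) at an adjusted p of 0.05, of which 1 rose (0.00451%).

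In e/e mice the hormone genes differed little between NDP-MSH and PBS. The differences were 0.04 for Prl, 0.08 for Gh, 0.07 for Pomc, 0.07 for Cga, 0.04 for Lhb, 0.05 for Tshb and 0.08 for Fshb, with a median of 0.07 beside 0.01 over all genes. The groups overlapped for all 7 genes, while 16.0% of all genes were higher and 14.3% lower without overlap. The limma SE for Prl and Gh, 1.86 and 1.72, takes in the spread of the wild-type NDP-MSH arrays, so it says little about e/e mice. Between the e/e arrays themselves, the SD of Prl was 0.11 under PBS, and that of Gh was 0.26 under NDP-MSH (n = 2 each). Limma called 0 of 22180 genes (0.0%) in this comparison, and 789 had an unadjusted p under 0.05.

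Sex was not balanced over the e/e arrays. Xist, the RNA of the inactive X chromosome, lay at -4.46 and -4.56 under NDP-MSH, against 0.56 and -0.82 under PBS, and the Y-linked Eif2s3y at 2.78 and 2.87 under NDP-MSH, against -0.02 and 2.04 under PBS. Sex and NDP-MSH cannot be told apart in the e/e comparison. Among wild-type arrays Eif2s3y lay between -0.19 and 0.02, and Xist was 0.62 in the array with high hormone transcripts and -0.56 in its partner, against 0.56 and 0.67 under PBS.

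With PBS alone, e/e mice were compared with wild-type mice. Prl was 0.02 ± 0.11 in e/e and -0.38 ± 0.12 in wild-type (SD, n = 2 each), a difference of 0.40, and Pomc was 0.05 ± 0.09 in e/e and -0.20 ± 0.05 in wild-type, a difference of 0.25. Gh differed by 0.08, Cga by 0.00, Tshb by -0.03, Fshb by -0.08 and Lhb by -0.10. Prl, Gh and Pomc were higher in both e/e arrays, 3 of 7 genes, where 17.4% of all genes were, and Lhb was lower in both, 1 of 7, where 16.7% were. Limma called 0 of 22180 genes (0.0%), with 1088 at an unadjusted p under 0.05. After another quantile normalization the Prl difference was 0.69. One e/e PBS array carried Y-linked transcript, with Eif2s3y at 2.04. Its Xist, at -0.82, lay well above the -4.46 and -4.56 of e/e NDP-MSH, so it held transcripts of both kinds. The sex make-up of the arrays thus differed within this group too.

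**Figure D4:**
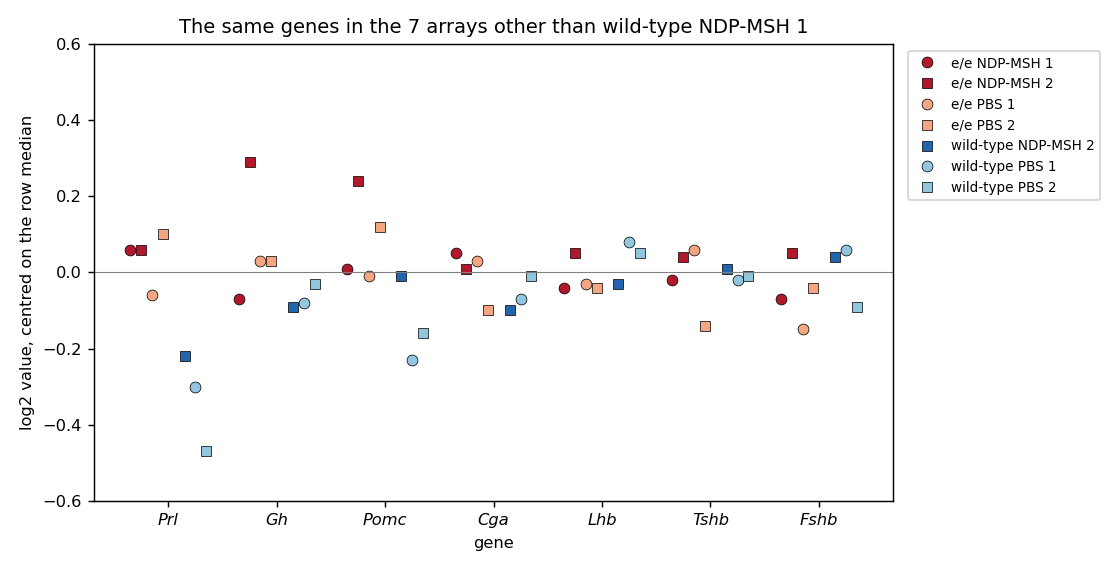
The same centred log2 values in the 7 arrays other than wild-type NDP-MSH 1, on an axis from -0.6 to 0.6. Prl lies at -0.22 or below in the 3 wild-type arrays and at -0.06 or above in the 4 e/e arrays, and the values of Cga, Lhb, Tshb and Fshb lie within 0.15 of 0.

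Outside the high array, Prl, Pomc and Gh varied more than the median gene and the other hormone genes less. Over the other 7 arrays the range was 0.57 for Prl, 0.47 for Pomc, 0.38 for Gh, 0.21 for Fshb, 0.19 for Tshb, 0.15 for Cga and 0.13 for Lhb, with a median of 0.21 beside 0.31 over all genes. The range of Prl exceeded that of 86.7% of genes, that of Pomc 77.7% and that of Gh 64.7%, while that of Cga exceeded 10.4% and that of Lhb 5.54%. Prl and Pomc had their lowest values in wild-type PBS arrays, at -0.47 and -0.23, and Gh and Pomc their highest in e/e NDP-MSH 2, at 0.29 and 0.24.

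Genes with the pattern most like the hormone genes were ranked by Pearson r with their mean profile over the 8 arrays, among genes with a range of at least 1. The r describes 1 high array more than anything else, since the mean profile was 2.94 there and between -0.10 and 0.11 elsewhere. The closest was Cd300ld, a myeloid receptor gene (r = 0.967), at 0.93 in wild-type NDP-MSH 1 and between -0.15 and 0.08 elsewhere. Oacyl followed (r = 0.918, 1.04 in that array), then Depp1 (r = 0.911, 1.13), the leukocyte gene Lst1 (r = 0.860, 0.80) and the cytokine receptor subunit Csf2rb (r = 0.781, 0.88). Further down came Pcdhb3, the neutrophil collagenase Mmp8, the T cell receptor complex gene Cd3e, Arhgap25, Dapp1, Fli1, Clec4a3, Mid1 and P-selectin (Selp), with r between 0.623 and 0.746, and 1 predicted gene. In size all lay far below Prl and Gh: the highest value in that array was 1.31, for Selp, which also lay at 0.98 in wild-type NDP-MSH 2.

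The receptors by which pituitary cells read hypothalamic signals were examined next, 9 of 9 measured. Gnrhr, the receptor of gonadotropin-releasing hormone on gonadotrophs, read 0.86 in wild-type NDP-MSH 1 and 0.13 in its partner, against -0.08 and -0.01 in wild-type PBS. Drd2, the dopamine receptor that restrains lactotrophs and is abundant in striatum, lay at 0.48 and 0.45 under NDP-MSH, against 0.63 and -0.07 under PBS. Sstr2, a somatostatin receptor also made in cortex, lay at 0.20 and 0.32 under NDP-MSH, against -0.13 and -0.53 under PBS. Of these 3, Gnrhr alone was highest in the array with high Prl, by 0.73. Ghrhr, the somatotroph receptor of growth hormone-releasing hormone, was chosen after its values were seen. It was also highest there and read 0.56 in that array and 0.07 in its partner, against -0.07 and -0.03 in wild-type PBS. The rest of the list, also outside the rule, was not highest there. In that array Crhr1 lay at -0.41, Sstr5 at -0.25, Avpr1b at -0.05 and Ghsr at -0.01. Trhr lay at 0.11 in that array and at 0.61 in its partner. None of the 9 passed limma in any of the 3 comparisons, and the list median lay at 0.11 in both wild-type NDP-MSH arrays.

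The lists that follow, cerebellum and sex-linked genes left out, held 94 measured genes together with these receptors. Limma called 0 of them in each of the 3 comparisons, with 18 at an unadjusted p under 0.05 in the wild-type, 3 in the e/e and 3 in the genotype comparison. As shares these were 19.1%, 3.19% and 3.19% of the listed genes, where 12.3%, 3.56% and 4.91% of all genes lay under that p.

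Transcription factors of the pituitary other than Pou1f1 did not follow the hormones in size. Of 14 listed, 12 were measured and 0 passed in the 3 comparisons, with a median of 0.03 in wild-type NDP-MSH 1 and 0.04 in its partner, against 0.01 and 0.01 in wild-type PBS. Six6, a factor of pituitary and hypothalamic development, read 0.40 in wild-type NDP-MSH 1 and -0.21 in its partner, against -0.04 and 0.09 in wild-type PBS. Isl1 lay at 0.16 and 0.02 under NDP-MSH, against 0.12 and 0.09 under PBS. Eya1 lay at 0.21 and 0.30 under NDP-MSH, against 0.03 and -0.14 under PBS. Tbx19, the factor of corticotrophs and melanotrophs, which switches on Pomc, lay at -0.19 and 0.04 under NDP-MSH, against 0.07 and 0.15 under PBS.

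The intermediate lobe list did not share the pattern in its median. The median of the posterior lobe list was highest in the array with high hormones, though small in size. The intermediate lobe list had 3 of 4 genes measured and a median of 0.04 in both wild-type NDP-MSH arrays, with Pax7, the melanotroph factor, at 0.04 and -0.02 under NDP-MSH, against 0.08 and 0.00 under PBS. The pituicyte list of the posterior lobe (5 of 5) had medians of 0.16 and 0.01 under NDP-MSH, against -0.04 and -0.04 under PBS, with Lhx2 at 0.23 and 0.34 under NDP-MSH, against -0.04 and -0.42 under PBS. Col25a1 lay at 0.16 and 0.01 under NDP-MSH, against 0.25 and -0.06 under PBS. Tbx3 lay at 0.20 and -0.12 under NDP-MSH, against 0.10 and -0.04 under PBS. Epithelial and stem cell genes of the gland (7 of 8) had medians of 0.03 and -0.01 under NDP-MSH, against 0.07 and 0.00 under PBS. The widest range was that of the retinoic acid synthase Aldh1a2, at 0.50 and 0.83 under NDP-MSH, against 0.08 and -0.22 under PBS. Sox9 went the other way, at -0.01 and -0.07 under NDP-MSH, against 0.23 and 0.14 under PBS. Krt8 lay at -0.02 and 0.29 under NDP-MSH, against 0.02 and -0.04 under PBS. Of these 3 lists 0 genes passed in the 3 comparisons.

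Prohormone processing and granule genes, which endocrine cells share with neurons, lay near 0 in the high array. Of 11 listed, 10 were measured and 0 passed, with medians of 0.02 and 0.00 in wild-type NDP-MSH, against 0.01 and -0.01 in wild-type PBS. Pcsk1, the convertase that cuts Pomc to ACTH, lay at -0.03 and 0.03 under NDP-MSH, against -0.22 and -0.52 under PBS. Vgf lay at 0.05 and 0.02 under NDP-MSH, against -0.08 and -0.40 under PBS. Pcsk1n lay at 0.18 and 0.19 under NDP-MSH, against -0.02 and -0.18 under PBS.

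Hypothalamic factors that drive or restrain the gland had 0 of 9 genes past the test, and of 9 further hypothalamic neuropeptides 8 were measured and 0 passed. The medians of the first were 0.00 in wild-type NDP-MSH 1 and 0.28 in its partner, against -0.04 and -0.02 in wild-type PBS, and those of the second -0.18 and 0.04 under NDP-MSH, against -0.04 and 0.00 under PBS. Trh, thyrotropin-releasing hormone, lay at 0.02 and 1.26 under NDP-MSH, against -0.24 and -0.02 under PBS, and was thus high in the array without the pituitary signal. Tac2 lay at 0.15 and 0.57 under NDP-MSH, against -0.02 and 0.08 under PBS. Avp lay at -0.01 and 0.23 under NDP-MSH, against 0.01 and -0.06 under PBS. Npy lay at 0.24 and 0.41 under NDP-MSH, against -0.04 and -0.44 under PBS. The other 2 genes of widest range in the second list did not follow Npy. Pmch lay at -0.14 and 0.06 under NDP-MSH, against -0.04 and 0.46 under PBS. Oxt lay at -0.22 and -0.02 under NDP-MSH, against 0.02 and 0.05 under PBS.

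On the receiving side, receptors of the pituitary hormones (8 of 10 measured) and STAT5 response genes (5 of 5), which prolactin and growth hormone regulate through JAK2 (Bcl6 is repressed), had 0 genes past the test in the 3 comparisons. The receptor medians were 0.04 and 0.05 in wild-type NDP-MSH, against -0.01 and -0.02 in wild-type PBS. Mc5r lay at 0.43 and 0.18 under NDP-MSH, against -0.13 and -0.21 under PBS. Mc4r lay at 0.11 and 0.20 under NDP-MSH, against -0.03 and -0.06 under PBS. The thyrotropin receptor Tshr lay at 0.08 and 0.04 under NDP-MSH, against 0.07 and -0.05 under PBS. The STAT5 medians were 0.00 and -0.03 under NDP-MSH, against 0.00 and 0.05 under PBS, with Socs3 at 0.33 and 0.19 under NDP-MSH, against 0.04 and -0.04 under PBS. Socs2 lay at 0.10 and 0.16 under NDP-MSH, against 0.00 and -0.13 under PBS. Bcl6 lay at -0.04 and -0.03 under NDP-MSH, against 0.00 and 0.31 under PBS.

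Cerebellar genes differed in the same wild-type NDP-MSH arrays. All 6 measured cerebellar genes (of 7 listed) fell, with list medians of -2.67 and -1.96 under NDP-MSH, against -0.05 and 0.13 in wild-type PBS. Gabra6 of granule cells, for example, fell by 3.02 ± 0.20 (limma adjusted p = 0.00662), and without wild-type PBS 2 none of the 6 calls held, while the differences stayed close to those with all arrays, as for Gabra6 at -2.88 (limma adjusted p = 0.128). With the replicate block of the closing section, the cerebellar genes Ppp1r17 and Calb1 were not called (limma adjusted p = 0.0749 and 0.0712). In a fit of the 4 wild-type arrays alone, 2 of the 6 calls held. Choroid plexus and olfactory bulb had 0 genes past the test. Choroid plexus genes (6 of 7) had medians of -0.46 and 0.09 under NDP-MSH, against -0.03 and 0.19 under PBS, with the transthyretin gene Ttr at -0.86 in the array with high hormones and 0.05 in its partner, against -0.29 and 0.19 in wild-type PBS. Olfactory bulb genes (4 of 5) had medians of -0.19 and 0.31 under NDP-MSH, against 0.06 and 0.00 under PBS, with Cdhr1 at 0.49 and 2.23 under NDP-MSH, against 0.13 and -0.32 under PBS. Eomes lay at -0.66 and 0.33 under NDP-MSH, against -0.44 and -0.02 under PBS. Tbx21 lay at -0.01 and 0.29 under NDP-MSH, against 0.15 and 0.02 under PBS. Among wild-type arrays both were highest in wild-type NDP-MSH 2, as Cdhr1 was, at a smaller size. Lhfp, outside the rule and picked with its values known, lay at -0.36 and -0.31 under NDP-MSH, against -0.02 and 0.02 under PBS. The part of these regional differences in the hormone values was not tested.

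Glands and ganglia close to the brain had 0 genes past the test. Pineal genes (6 of 6) had medians of -0.01 and 0.02 under NDP-MSH, against 0.00 and -0.03 under PBS, although Tph1, the serotonin synthesis enzyme of the pineal and gut, read 0.42 in wild-type NDP-MSH 1 and -0.06 in its partner, against -0.01 and 0.01 in wild-type PBS. Sag, the arrestin of photoreceptors and pinealocytes, lay at 0.07 and 0.25 under NDP-MSH, against -0.29 and -0.07 under PBS, and the factor Crx at -0.16 and 0.22 under NDP-MSH, against -0.25 and -0.11 under PBS. Trigeminal ganglion and Schwann cell genes (5 of 8) had medians of 0.05 and 0.06 under NDP-MSH, against 0.01 and -0.04 under PBS, with the sensory sodium channel Scn10a at 0.51 and 0.22 under NDP-MSH, against -0.07 and -0.15 under PBS. Prph, the peripheral neuron filament, lay at -0.33 and 0.09 under NDP-MSH, against -0.16 and -0.02 under PBS, and the factor Pou4f1 at 0.02 and -0.21 under NDP-MSH, against 0.02 and 0.17 under PBS. No gene of a red blood cell list of 5 had a probe set with a single symbol in the annotation used here.

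**Figure D5:**
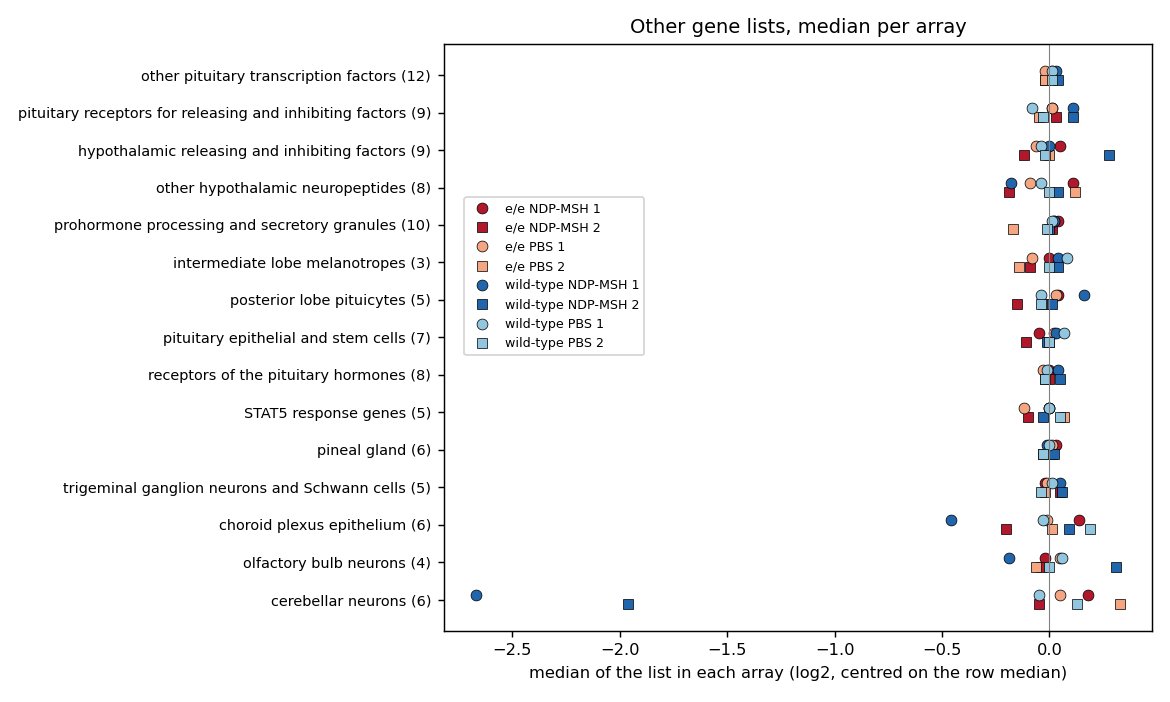
Median of each gene list in each of the 8 arrays, in centred log2 units, with the number of genes measured in brackets; circles are replicate 1, squares replicate 2 and colours the groups. The cerebellar median is -2.67 in wild-type NDP-MSH 1 and -1.96 in its partner, the choroid plexus median at -0.46 in wild-type NDP-MSH 1, and the medians of the pituitary lists between -0.15 and 0.16.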

How the data were processed

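The deposited table holds values for 33793 probe sets in 8 columns, taken as log2 since for the authors' log base, summarisation and normalization the sources used here give nothing. Per the labels' protocols, biotin-labelled cDNA was made with the WT Plus kit. Each deposited row was found centred on its median (largest absolute row median 5e-07), so no filter on dim signal could use levels. Column medians lay between -0.0043 and 0.0142. Through the platform annotation 23521 probe sets carried exactly 1 gene symbol. Those with several (1814) or none (8458) entered no gene value. Probe sets of a gene were averaged, which gave 22180 genes. Signal classes before centring (25915 rows at 4 to 8, 7820 at 8 or above, 58 unresolved) were read from the numerical step, with a tolerance of 0.05 of a step.

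Limma 3.58.1 (R 4.3.3) was fitted over all 8 arrays with 1 coefficient per group (4 residual and 3.45 prior degrees of freedom), with two-sided moderated tests. Calls were made at 0.05 after Benjamini-Hochberg adjustment across genes. The fit was tested on simulated data. The number of arrays limits the precision. The members and gene lists were chosen with earlier results of these data known. Named genes are the members, the 15 genes most like them (predicted genes not named) and, per list, genes of the widest range over the arrays, up to 3. Genes outside the rule are stated as such. Motifs were searched on both strands of RefSeq start regions (GRCm38.p6). No batch was tested, since slide and scan date were not used here. Alternatives are listed in the closing section. Figures were drawn with matplotlib 3.10.9.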

Additional observations from a re-analysis of the deposited data

How the results depend on the processing

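The fit was repeated with array weights, with a replicate block, after centring each array, after another quantile normalization, on the 4 arrays of a comparison alone, per probe set, on the brighter probe sets (signal of 8 or more), and without each array in turn. In the wild-type comparison, limma called 39 genes, against 14 with the replicate block, 20 after another quantile normalization, 5 with only the 4 arrays compared and 59 on the brighter probe sets. Leaving out each array gave 0 to 49 calls, with 0 without wild-type PBS 2 and 7 without wild-type NDP-MSH 1. Of the listed genes outside the hormone set 6 were called, 2 with only the 4 arrays compared, and 0 to 6 without 1 array. The replicate numbers share no stated source, and same-numbered deviations correlated at -0.098 in the wild-type, 0.179 in the e/e and 0.443 in the genotype comparison.

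The e/e comparison had 0 calls with all arrays and 0 to 51 without 1 array (51 without e/e PBS 1, 4 without e/e PBS 2), with 0 to 4 among the listed genes, and the genotype comparison had 0 to 4 calls and 0 to 3 among the listed genes, the highest without e/e PBS 1. The median of the hormone genes lay between 0.02 and 2.35 in the wild-type, 0.02 and 0.08 in the e/e, and -0.02 and 0.07 in the genotype comparison when 1 array was left out. After quantile normalization it was 0.66 in place of 1.14 in the wild-type comparison, with Gh at 1.25 in place of 3.28. All 7 hormone genes fell into the lower signal class, which was read from arrays other than the highest. The alternative on the brighter probe sets therefore gives them no value. With a minimum range of 0.5 in place of 1, only 3 of the 15 genes most like the hormone genes stayed among the first 15. The shorter Pit-1 motif TATNCA was found in 28.3% of start regions and in 3 of the 7 genes. The causes were not tested.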

Other observations

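In the e/e comparison 0 genes of either hypothalamic list passed the test, and the list medians in e/e NDP-MSH 2 were -0.12 and -0.19. Some of the genes of the widest range were low in that array. Pmch, the melanin-concentrating hormone precursor of the lateral hypothalamus, lay at 0.04 in e/e NDP-MSH 1 and -1.64 in e/e NDP-MSH 2, against -0.28 and 0.77 in e/e PBS. Avp, vasopressin, lay at 0.40 and -0.94 under NDP-MSH, against -0.01 and 0.27 under PBS. Oxt, oxytocin, lay at 0.07 and -0.70 under NDP-MSH, against -0.08 and 0.38 under PBS. Tac2, made by arcuate neurons among others, lay at 0.02 and -0.73 under NDP-MSH, against -0.13 and -0.52 under PBS, so that it was low in 1 PBS array too. Others were not low in e/e NDP-MSH 2, among them Ghrh at 0.02, Crh at 0.01, Kiss1 at 0.10 and Qrfp at 0.22, which were picked with their values known. Pomc and Gh had their highest values outside wild-type NDP-MSH 1 in the same e/e NDP-MSH 2 array, at 0.24 and 0.29.

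Among the 17 genes that exceeded all other arrays by more than 0.5 in wild-type NDP-MSH 1, Esr1, the estrogen receptor gene, lay at 0.59 with a gap of 0.57, the acute phase gene Saa3 at 1.28 with a gap of 0.58, and the kallikrein gene Klk1 at 0.60 with a gap of 0.52. These 3 were picked with their values known.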
